A study of Mus musculus with 6 samples.

Results

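The 10 genes described here encode subunits of the Polycomb repressive complexes PRC1 and PRC2, and they were taken by symbol from a table of 43548 genes (for a repeated symbol, the entry with the highest mean). Bmi1 and Suz12 are reported targets of miR-200 microRNAs, and they were set against Ezh1, Ezh2, Eed, Jarid2, Ring1, Rnf2, Pcgf2 and Cbx7. All 10 were among the 12879 genes that were tested, those that averaged 1 FPKM or more (fragments on a gene divided by its transcript length and by the mapped fragments of the library).

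The mRNA came from Met-1 TripZ-200c cells, a mouse mammary carcinoma line of strain FVB/nJ with a lentiviral vector whose miR-200c precursor is switched on by doxycycline (Dox). Cells received vehicle (minus Dox) or 1 µg/mL Dox (plus Dox) for 48 h, with 3 libraries in each group. The time is that of the sample labels, and a legend of the study ties these samples to cells treated for longer. The line is a single clone sorted for tight induction, so p-values measure the spread between cultures of that clone. Libraries of Dox-treated cells with the empty vector were not analysed here, so an effect of Dox and an effect of miR-200c cannot be told apart.

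PRC2 places methyl groups on lysine residues of histone H3 and PRC1 places ubiquitin on histone H2A, and both marks accompany silenced genes. EZH1 or EZH2 is the methyltransferase of PRC2 and works only with EED and SUZ12, while RING1 or RNF2 is the ubiquitin ligase of PRC1 and pairs with a PCGF protein such as BMI1. These complexes are best known for silencing developmental regulators and the Ink4 locus, which holds cell cycle inhibitors.

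A microRNA pairs with mRNAs mainly through its seed, and the sequences below show which members could pair with miR-200c in that way. In mature miR-200c-3p (RefSeq, GRCm38.p6, chr6:124718324-124718346, minus strand) the capitals mark the seed, bases 2 to 8.
miR-200c-3p: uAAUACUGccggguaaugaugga
The same seed is found in miR-200b-3p and miR-429-3p. The longest annotated 3′ UTR of each member was searched on the mRNA strand for the complement of the seed, CAGTATT (a 7mer match), which is called an 8mer where an A follows. It was found in 3 of 10 members, once each, and 1 of the 3 was an 8mer. Of all tested genes with an annotated 3′ UTR, 16.8% held a 7mer and 4.23% an 8mer. Each line gives the match in capitals within its mRNA-sense sequence (GRCm38).
Suz12, chr11:80033482-80033508, plus strand: gtggatgtgacttgtcatcCAGTATTa
Rnf2, chr1:151469959-151469985, minus strand: ctctaagtttaaattctcaCAGTATTt
Bmi1, chr2:18685149-18685175, plus strand: tatatgacataacaggaaaCAGTATTg
The match started at base 1311 of 1933 of the Suz12 3′ UTR, at base 1350 of 1911 in Rnf2 and at base 687 of 2148 in Bmi1. The reported targets Suz12 and Bmi1 thus each held 1 match, and so did Rnf2. The shorter 6mer AGTATT, which matches bases 2 to 7 and lies inside every 7mer, was found in 4 members, since Pcgf2 also held it at base 354 of its 3′ UTR. How many of all tested genes hold the 6mer was not computed, so the count of 4 has no background. A match describes the letters only.

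The known miR-200c target genes Zeb1 and Zeb2 were read as a check of the labels. Zeb1, a repressor of epithelial genes, was at 41.0, 42.1 and 42.3 FPKM in the minus Dox libraries and at 19.8, 20.3 and 23.6 FPKM in the plus Dox libraries. It fell by 0.98 on the log2 scale (limma adjusted p = 0.000362), and Zeb2, whose 3′ UTR holds 5 seed matches, fell by 1.81 (limma adjusted p = 4.5e-05). The Mir200c gene itself was listed at 0 in all 6 libraries, and the vector's precursor is not a feature of the table. Of the markers looked up for the line, Krt18 was at 91.2 to 96.4 FPKM without and at 364 to 400 FPKM with Dox, while Krt8 stayed under 1 FPKM, Krt14 was at most 0.154 FPKM and Krt5 and Pgr were listed at 0 in all 6 libraries. Of 9 markers of leukocytes and endothelium, 2 exceeded 1 FPKM, Cd68 at 6.31 to 11.3 and Cdh5 at 3.95 to 4.66, and Ptprc was at most 0.161. The 9 markers summed to 11.5 to 15.8 FPKM without Dox and 11.2 to 11.9 with it, and their part in the results was not tested. FPKM do not give the number of reads, but from the smallest steps in each library the relative depth ranged from 0.918 to 1.49 times that of the first minus Dox library.

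No Polycomb member passed the test in either direction, while 15.0% of all tested genes did (7.06% higher and 7.97% lower with Dox). The test was limma on log2(FPKM + 0.1) with Benjamini-Hochberg adjustment over all 12879 genes and a threshold of 0.05. At an unadjusted p under 0.05 there were 2 members, Eed (higher) and Cbx7 (lower), against 29.2% of all tested genes. An unmoderated model on FPKM also called 0 of 10. The groups did not overlap in 3 members that were higher with Dox (Ezh1, Eed and Suz12), against 17.4% of all tested genes, and in 1 that was lower (Cbx7), against 17.6%. Log2 fold changes ranged from -0.26 for Cbx7 to 0.35 for Eed, with a median of 0.08 beside 0.0039 for all tested genes. In bulk RNA, fewer cells that express a gene and less of its RNA per cell cannot be told apart.

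**Figure D1:**
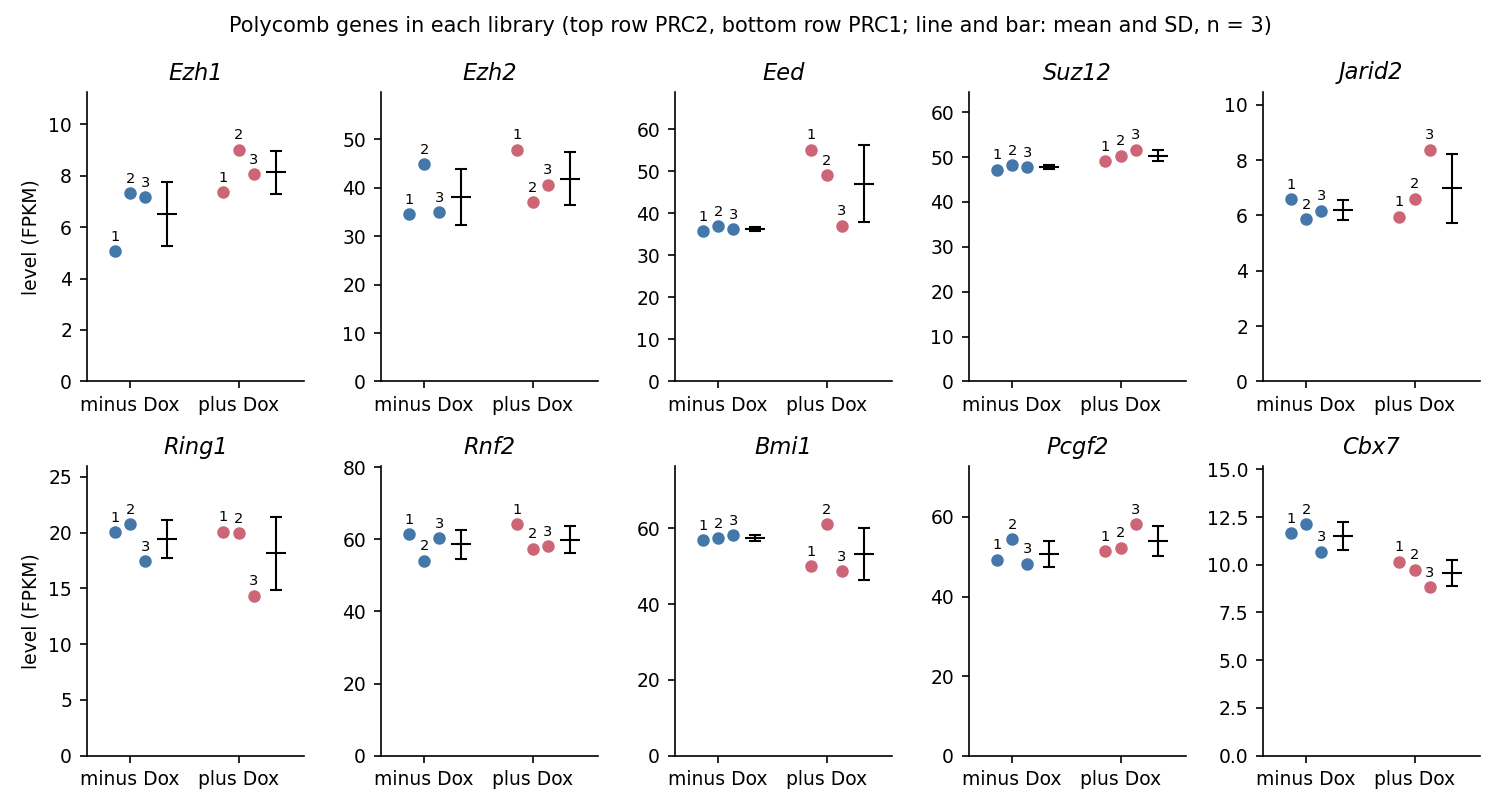
Level of each member (FPKM, each axis from 0) in the 3 minus Dox libraries (blue) and the 3 plus Dox libraries (red), numbered as in the labels, with the mean and SD of each group beside them. Cbx7 lies lower in every plus Dox library, Eed is spread from 37.1 to 55.1 with Dox after 35.8 to 36.9 without, and Bmi1 has 1 plus Dox library above and 2 below all minus Dox libraries.

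Among the catalytic subunits of PRC2, Ezh2 was far more abundant than Ezh1 in both groups. Ezh2 (chr6:47530139-47595341, minus strand), the main histone methyltransferase of dividing cells, was at 34.6, 44.8 and 34.9 FPKM in minus Dox libraries 1 to 3 and at 47.8, 37.1 and 40.6 in plus Dox libraries 1 to 3. The groups overlapped, with 1 high library in each. The log2 fold change was 0.14 (95% interval -0.17 to 0.44, adjusted p = 0.539). Ezh1 (chr11:101191115-101226463, minus strand), the paralog known from cells that divide little, was at 5.06, 7.31 and 7.17 FPKM without and 7.35, 9.01 and 8.05 FPKM with Dox. All plus Dox libraries stood above all minus Dox libraries, but the gap between 7.31 and 7.35 FPKM was narrow. Its log2 fold change of 0.33 had a wide interval (-0.05 to 0.72, adjusted p = 0.232). Ezh2 made up 85.4% ± 2.2 (SD, n = 3) of the FPKM of both paralogs without Dox and 83.5% ± 3.1 (SD, n = 3) with it.

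Eed and Suz12, the partners without which the methyltransferase is inactive, differed in how far their plus Dox libraries spread. Eed (chr7:89954654-89980983, minus strand), which binds the methyl mark and stimulates the enzyme, was at 35.8, 36.9 and 36.3 FPKM in the minus Dox libraries and 55.1, 49.1 and 37.1 FPKM in the plus Dox libraries. Plus Dox libraries 1 and 2 were well above the minus Dox range, and library 3 was barely above its upper end. The log2 fold change was 0.35 (95% interval 0.04 to 0.67, adjusted p = 0.129). Without plus Dox library 3 it was 0.52 with an adjusted p of 0.00938, and without any other single library the adjusted p was up to 0.284. The SD of the log2 values of Eed was 0.0223 in the minus Dox group and 0.293 in the plus Dox group, where 94.6% of the 7878 genes with a mean of 5 to 65 FPKM had a smaller SD. An antisense RNA, E230029C05Rik, matches 12.6% of the longest Eed transcript at a mean level of 0.872 FPKM. Rnf2 shares 3.8% of its exonic bases with the opposite-strand gene Trmt1l (mean 25.1 FPKM), and Cbx7 shares 1.5% with Apobec3 (17.7 FPKM). Whether the counting used strand is not given in the sources used here.

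Suz12 (chr11:79993106-80034123, plus strand), the scaffold of PRC2 and a reported miR-200 target, was at 47.2, 48.2 and 47.8 FPKM without and 49.0, 50.3 and 51.6 FPKM with Dox. All 3 plus Dox libraries were higher, by little. The log2 fold change of 0.07 had the narrowest interval of the 10 members (-0.02 to 0.17, adjusted p = 0.282), equal to 0.985-fold to 1.13-fold. Its lower end was thus close to no difference. Jarid2 (chr13:44729474-44921643, plus strand), an accessory subunit that helps PRC2 to find its sites, was at 6.58, 5.86 and 6.17 FPKM without and 5.96, 6.60 and 8.37 FPKM with Dox. Plus Dox library 1 lay within the minus Dox range, library 2 barely above it and library 3 well above it. The log2 fold change was 0.15 (95% interval -0.18 to 0.49, adjusted p = 0.528). All 5 PRC2 members thus had fold changes above 0 (median 0.15), none of which passed. Of all 12879 tested genes 6541 were above 0. Among the PRC2 genes outside the 10 members, 1 of 2 core and 3 of 6 tested accessory genes were above 0.

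In the ligase pair of PRC1, Rnf2 was the more abundant. Rnf2 (chr1:151458004-151500955, minus strand) was at 61.5, 54.0 and 60.3 FPKM without and 64.2, 57.4 and 58.0 FPKM with Dox. The groups overlapped, and the log2 fold change was 0.03 (95% interval -0.13 to 0.19, adjusted p = 0.810). It was -0.03 without minus Dox library 2 and -0.02 without plus Dox library 1. Ring1 (chr17:34020792-34024680, minus strand) was at 20.1, 20.8 and 17.5 FPKM without and 20.1, 20.0 and 14.3 FPKM with Dox. Only plus Dox library 3 lay below the minus Dox range. The log2 fold change of -0.11 (95% interval -0.45 to 0.22, adjusted p = 0.659) became 0.05 without that library. Rnf2 held 75.1% ± 2.7 (SD, n = 3) of the FPKM of the pair without Dox and 76.8% ± 3.1 (SD, n = 3) with it.

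Bmi1 and Pcgf2 encode PCGF proteins that replace each other beside the ligase in canonical PRC1. Bmi1 (chr2:18677018-18686629, plus strand), a reported miR-200 target known for its role in stem cell self-renewal, was at 56.8, 57.4 and 58.2 FPKM in the minus Dox libraries. With Dox it was at 50.01, 61.1 and 48.7 FPKM. Plus Dox libraries 1 and 3 were below and library 2 above the whole, narrow minus Dox range. The log2 fold change was -0.12 (95% interval -0.32 to 0.09, adjusted p = 0.426), equal to 0.802-fold to 1.06-fold. Without plus Dox library 2, the most deeply sequenced of the 6, it was -0.22 with an adjusted p of 0.0384, and without any other single library the adjusted p was up to 0.756. The value of Bmi1 is uncertain in 1 respect, since 73.9% of its longest transcript matches the pseudogene Gm5946 at 95% identity or more. Gm5946 was listed at 45.4, 36.8 and 42.5 FPKM without and 37.8, 40.3 and 36.7 FPKM with Dox (log2 fold change -0.12, 95% interval -0.31 to 0.08, adjusted p = 0.418). How reads were divided between both is not given in the sources used here.

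Pcgf2 (chr11:97688823-97700497, minus strand), the closest paralog of Bmi1, was at 49.3, 54.5 and 48.3 FPKM without and 51.4, 52.2 and 58.2 FPKM with Dox. The groups overlapped, with plus Dox library 3 the highest (log2 fold change 0.09, 95% interval -0.07 to 0.25, adjusted p = 0.448). Cbx7 (chr15:79915807-79971119, minus strand), a subunit that binds methylated histone H3, was at 11.7, 12.1 and 10.7 FPKM without and 10.2, 9.74 and 8.82 FPKM with Dox. It was the only member whose plus Dox libraries were all below the minus Dox libraries. Its log2 fold change of -0.26 had an interval that left out 0 (-0.47 to -0.05) but did not pass after adjustment over all genes (adjusted p = 0.102, and 0.094 to 0.261 over 15 alternatives). Of the 5 PRC1 members 2 had fold changes above 0 and 3 below (median -0.11).

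**Figure D2:**
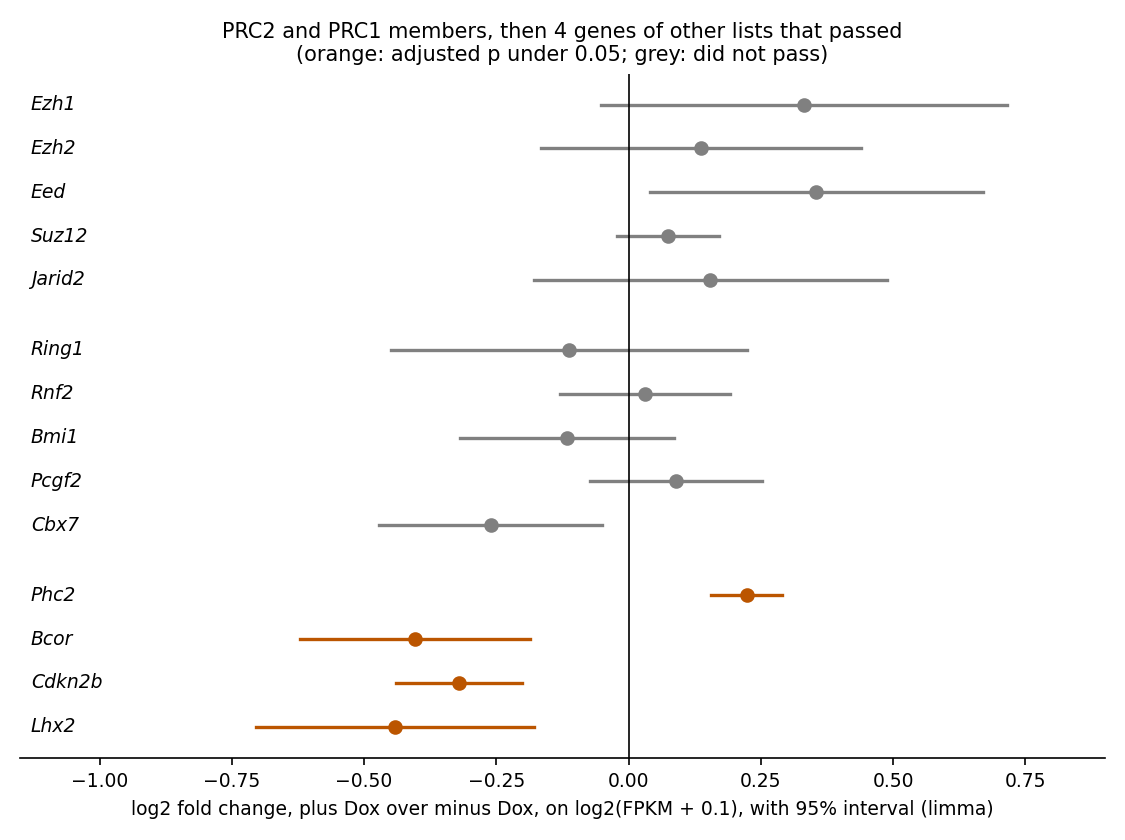
Log2 fold change (plus Dox over minus Dox, on log2(FPKM + 0.1)) with its 95% interval from limma for the 5 PRC2 members, the 5 PRC1 members and 4 genes of the related Polycomb lists that passed the test (orange). The intervals of Eed and Cbx7 leave out 0 without passing after adjustment over all genes, and Suz12 has the narrowest interval of the members.

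The reported targets were then compared with the other subunits. Bmi1 and Suz12 had log2 fold changes of -0.12 and 0.07, and the other 8 members had a median of 0.11 with 6 above and 2 below 0. Within each library, the log2 level of Bmi1 stood 1.47, 1.38 and 1.504 above the mean of the other 8 without Dox and 1.12, 1.44 and 1.18 above it with Dox. The difference was -0.21 (SE 0.11), and plus Dox library 2 lay within the minus Dox range. These values use the listed Bmi1 level, which depends on how reads were divided with Gm5946. For Suz12 the same distance was 1.21, 1.13 and 1.22 without and 1.09, 1.16 and 1.27 with Dox, a difference of -0.02 (SE 0.06). No p-value was computed for either difference. The members were chosen with results of these data known, which also bears on the p-values given for them elsewhere.

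Ratios of subunits that replace or accompany each other overlapped between the groups. Across the 3 minus Dox and 3 plus Dox libraries, the Bmi1 level was 1.15, 1.05 and 1.21 times that of Pcgf2 without Dox and 0.974, 1.17 and 0.837 times with it. The mean log2 ratio went from 0.18 to -0.02, a difference of -0.21 (SE 0.15). The Suz12 level was 1.32, 1.31 and 1.32 times that of Eed without Dox, and 0.889, 1.02 and 1.39 times with it, so that a ratio nearly constant in the minus Dox libraries spread widely in the plus Dox libraries (difference -0.28, SE 0.19). The differences in log2 ratio were -0.19 (SE 0.24) for Ezh2 to Ezh1, 0.14 (SE 0.19) for Rnf2 to Ring1, -0.06 (SE 0.17) for Suz12 to Ezh2 and -0.15 (SE 0.15) for Bmi1 to Rnf2. Over all 6 ratios, exact two-sided permutation tests gave p from 0.3 to 0.5, or 0.5 for each after adjustment over the 6 ratios. The smallest p that 3 libraries against 3 can give is 0.1. The ratios with Bmi1 also depend on how reads were divided with Gm5946.

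FPKM are per length, so levels can be ordered between genes. The place of Bmi1 in the order depends on how reads were divided with Gm5946. Without Dox the mean levels descended from Rnf2 (58.6 FPKM), Bmi1 (57.5), Pcgf2 (50.7) and Suz12 (47.8) through Ezh2 (38.1) and Eed (36.3) to Ring1 (19.4), Cbx7 (11.5), Ezh1 (6.51) and Jarid2 (6.20). The median of all tested genes was 22.8 FPKM, so 6 members stood above and 4 below it. Neighbours whose libraries overlapped were Rnf2 and Bmi1, Ezh2 and Eed, and Ezh1 and Jarid2. With Dox, Pcgf2 (53.9 FPKM) stood before Bmi1 (53.3), and Eed (47.1) before Ezh2 (41.8). There the libraries of the 6 most abundant members overlapped from each neighbour to the next, and in this order gaps were seen only between Ezh2 and Ring1 and between Ring1 and Cbx7.

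All 6 PCGF and 5 canonical CBX genes were then read to place Bmi1, Pcgf2 and Cbx7 among their paralogs. Bmi1 held 31.1% ± 1.1 (SD, n = 3) of the summed PCGF level without Dox and 28.4% ± 2.8 (SD, n = 3) with it. Pcgf2 held 27.4% ± 1.2 without and 28.9% ± 2.1 with Dox (SD, n = 3), and Pcgf3, which serves variant PRC1, 26.4% ± 0.63 and 26.7% ± 0.35 (SD, n = 3). At the listed levels these 3 genes thus shared the PCGF pool almost evenly in both groups. The share of Bmi1 depends on how reads were divided with its pseudogene Gm5946. That pseudogene was listed at a mean of 41.56 FPKM without and 38.25 FPKM with Dox and is not in the pool. Cbx7 was the smallest part of the CBX pool, at 4.54% ± 0.24 without and 4.04% ± 0.25 with Dox (SD, n = 3). Cbx6 held 38.3% to 38.7% of that pool without and 42.1% to 44.9% with Dox, and Cbx8 20.0% to 22.6% without and 16.2% to 19.7% with Dox. Neither Cbx6 (log2 fold change 0.09, adjusted p = 0.197) nor Cbx8 (-0.31, adjusted p = 0.0537) passed the test. Shares of a pool move together by construction and were not tested.

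**Figure D3:**
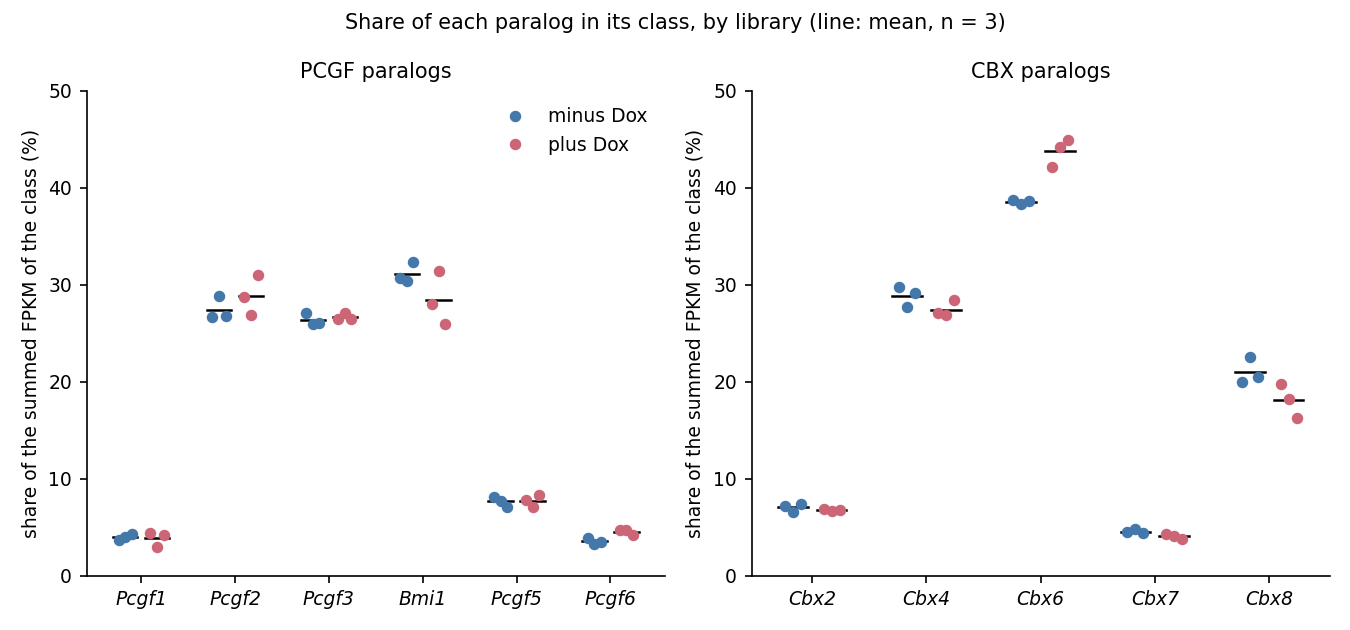
Share of each gene in the summed FPKM of the 6 PCGF paralogs (left) and of 5 CBX paralogs (right) in every minus Dox (blue) and plus Dox (red) library, with the group mean as a line. At the listed levels Bmi1, Pcgf2 and Pcgf3 each hold between 25.9% and 32.3% of the PCGF level in every library. Cbx7 holds 3.77% to 4.81% of the CBX level. The share of Bmi1 depends on how reads were divided with Gm5946.

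Among 41 other genes of these and related complexes, 37 were tested and 2 passed, beside 15.0% of all tested genes. Phc2, a subunit of canonical PRC1 whose protein forms chains that compact chromatin, was at 284, 288 and 276 FPKM without and 327, 332 and 331 FPKM with Dox. It rose by a log2 fold change of 0.22 (95% interval 0.16 to 0.29, adjusted p = 0.00306), the groups lay far apart relative to their spread, and it passed in 15 of 16 alternatives, all but a minimum change of 1.5-fold. It made up 87.5% ± 1.4 of the summed PHC level without and 90.3% ± 0.19 with Dox (SD, n = 3). Bcor, a subunit of variant PRC1 and a corepressor, was at 8.09, 9.15 and 8.83 FPKM without and 6.70, 6.74 and 6.19 FPKM with Dox. It fell by 0.40 on the log2 scale (adjusted p = 0.0287), but passed in only 8 of 16 alternatives. Its adjusted p was 0.0906 and 0.0837 without minus Dox libraries 2 and 3, and 0.0663, 0.072 and 0.0984 without plus Dox libraries 1 to 3. The median log2 fold change of the 37 genes was 0.01, with 19 above and 18 below 0.

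The other members of the same subunit classes did not pass. Rbbp4 and Rbbp7, histone-binding subunits of PRC2, had log2 fold changes of -0.05 and 0.06, and the 6 tested accessory PRC2 genes ranged from -0.14 to 0.14. Cbx8 and Pcgf6 came closest to the threshold without passing. Cbx8 was at 52.2, 56.9 and 50.3 FPKM without and 47.2, 43.3 and 38.0 FPKM with Dox, and Pcgf6, which serves variant PRC1, at 7.09, 6.18 and 6.26 FPKM without and 8.46, 9.11 and 7.78 FPKM with Dox (log2 fold change 0.37, adjusted p = 0.0554). The groups did not overlap in either gene. Cbx8 passed without plus Dox library 1 (adjusted p = 0.0394) and at a minimum mean of 5 FPKM (0.046), and Pcgf6 passed in limma without the trend (0.0496). Of the enzymes that remove Polycomb marks, such as the H3 demethylase gene Kdm6b and the H2A deubiquitinase gene Usp16, 0 of 5 passed (median -0.02). Of the Trithorax and COMPASS genes, whose products oppose Polycomb silencing, 0 of 14 passed (median 0.04). The share of all tested genes that passed was 15.0%, and lists this short limit what a count of 0 shows.

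Genes that textbooks name as silenced by Polycomb were mostly without signal in both groups. Of 53 such genes 39 were listed at 0 in all 6 libraries, among them 30 of 39 Hox genes, which specify body position. Of all 43548 genes 23035 were also listed at 0 in all 6, so a lack of signal was common outside this list too. Those 43548 include non-coding genes, so their share is not a like background for this list. Whether the list differs from them was not tested. Of the 8 that were tested 1 rose and 2 fell, beside 7.06% and 7.97% of all tested genes. Cdkn2b, a cell cycle inhibitor of the Ink4 locus, was at 71.1, 75.5 and 71.9 FPKM without and 55.7, 61.4 and 57.8 FPKM with Dox. It fell by 0.32 on the log2 scale (95% interval -0.44 to -0.20, adjusted p = 0.00714) and passed in 15 of 16 alternatives, all but the 1.5-fold minimum. Cdkn2a, its neighbour at that locus, was abundant at 397 to 414 FPKM without and 367 to 394 FPKM with Dox and did not pass (-0.10, adjusted p = 0.0947).

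The other gene described here that fell, the developmental regulator Lhx2, depended on which libraries were used. It was at 10.9, 8.88 and 9.34 FPKM without and 6.64, 7.78 and 6.90 FPKM with Dox, and fell by 0.44 on the log2 scale (adjusted p = 0.0399). The groups did not overlap, but Lhx2 passed in 5 of 16 alternatives. Without any single library Lhx2 did not pass (adjusted p 0.102, 0.0583 and 0.0869 without minus Dox libraries 1 to 3 and 0.114, 0.0589 and 0.12 without plus Dox libraries 1 to 3). Of the 4 tested Hox genes 0 passed, beside 15.0% of all tested genes. Hoxa3 was at a mean of 4.23 FPKM without and 3.85 FPKM with Dox, and Hoxa5 at 3.37 and 3.86 FPKM.

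**Figure D4:**
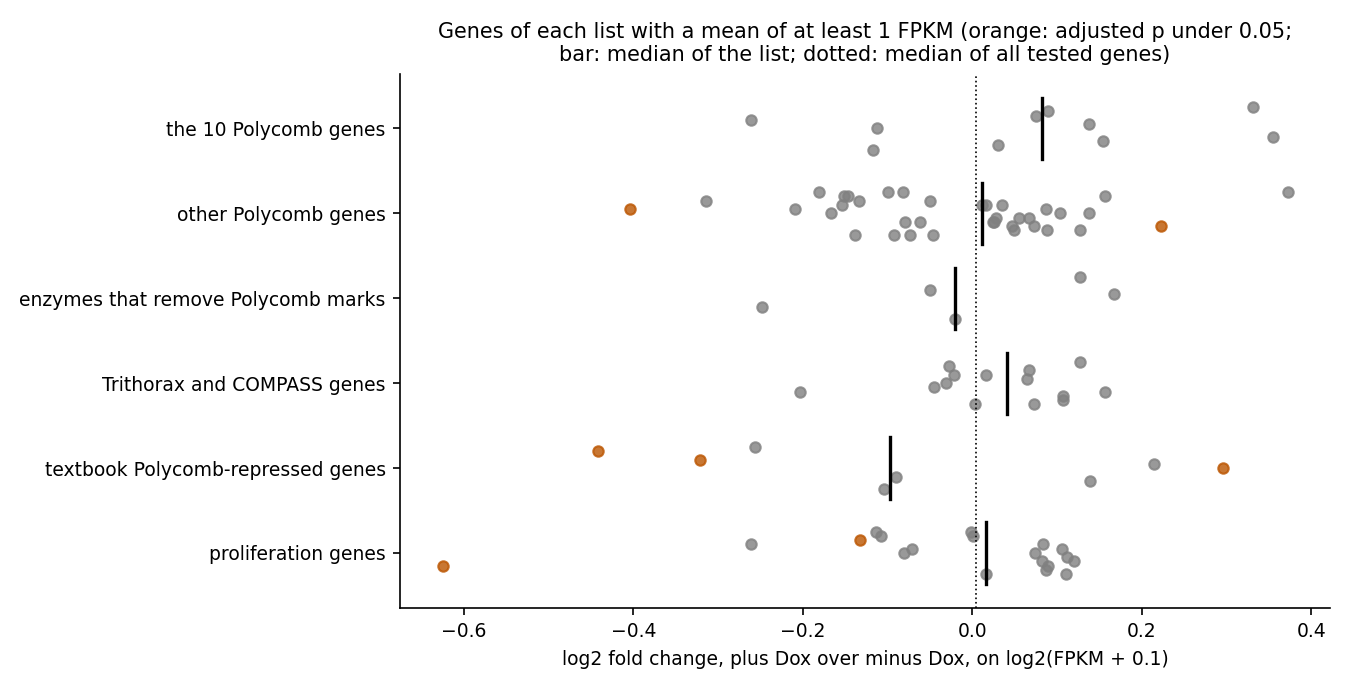
Log2 fold change (plus Dox over minus Dox) of every tested gene of each list, with the median of the list as a bar and that of all tested genes as a dotted line. The 10 Polycomb genes run from -0.26 to 0.35 with none past the threshold (orange), beside 2 of 37 other Polycomb genes and 3 of 8 textbook Polycomb-repressed genes. Of all tested genes 15.0% passed.

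The members with a seed match were last set beside all genes with one. Of 10849 tested genes with an annotated 3′ UTR 16.8% held at least 1 7mer, and their median log2 fold change was -0.05, against 0.01 for the 9026 genes without one. Of the genes with a match 16.4% passed as lower and 4.33% as higher, against 7.40% and 8.52% of the genes without. The 459 genes with an 8mer (4.23%) had a median of -0.11, and 26.4% of them passed as lower. The 3′ UTRs of genes with a match were longer (median 2636 against 1178 bases), and the part of length was not tested.

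Suz12 holds an 8mer, and 81.7% of the 459 genes with an 8mer had a lower log2 fold change than its 0.07. Rnf2, with a 7mer, had a log2 fold change of 0.03, above that of 66.4% of the 1823 genes with a 7mer. Bmi1, also with a 7mer, was nearest to the median of those genes at -0.12, above that of 37.1% of them. The 3 members with a match had a median of 0.03 and the 7 without one a median of 0.14, and none of either passed.

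**Figure D5:**
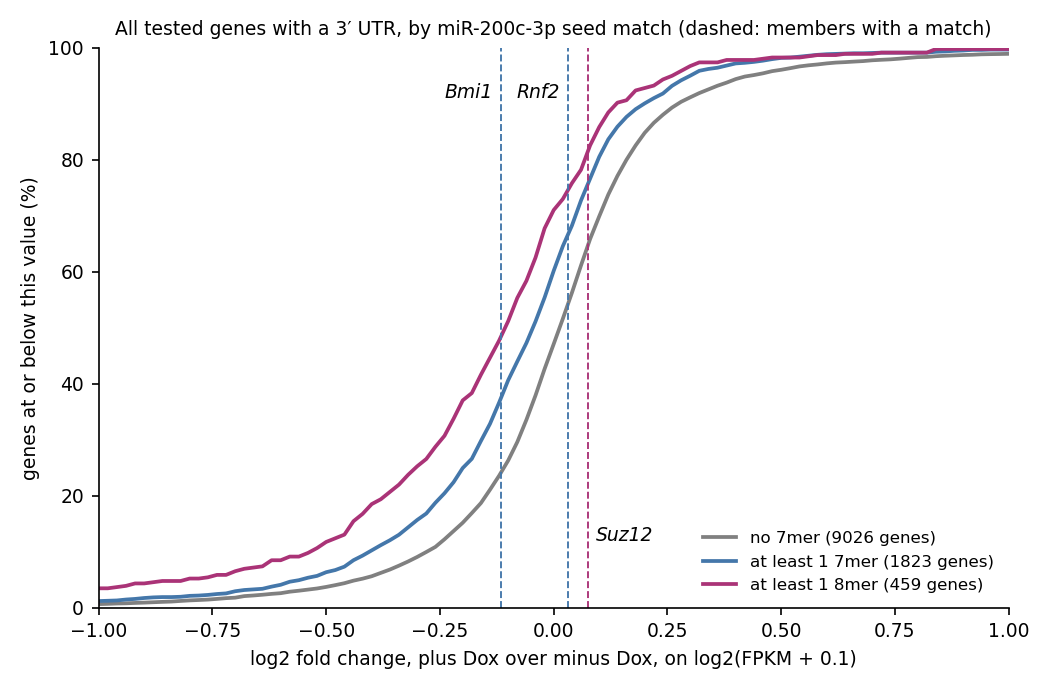
Cumulative share of genes (%) against log2 fold change (plus Dox over minus Dox) for tested genes with no 7mer match to the miR-200c-3p seed in the 3′ UTR (grey), at least 1 7mer (blue) and at least 1 8mer (purple), which are also among the 7mer genes. The curves of genes with matches lie to the left, and the dashed lines mark Bmi1 at -0.12, Rnf2 at 0.03 and Suz12 at 0.07.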

How the data were processed

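The mRNA libraries, 3 minus Dox and 3 plus Dox, were grouped by the sample labels. The authors mapped single reads with gSNAP and deposited FPKM per gene from Cufflinks (build GRCm38.p6 in the submitters' processing notes). They also deposited group means, a fold score (ratio), p-values and q-values of their own comparison, which were not used. FPKM removes depth, so the reads behind a value are unknown; libraries correlated at 0.958 to 0.979. The table had 43611 entries for 43548 genes: 63 repeats were dropped, 6 placeholder cells in 4 genes were treated as missing, and 0 columns of per-sample values were left unused.

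Genes that averaged 1 FPKM or more were tested by limma 3.58.1 (R 4.3.3) on log2(FPKM + 0.1) (trend, group as the only term, Benjamini-Hochberg adjustment, threshold 0.05). A fold change on this scale understates that of low genes. The model was tested on simulated data. Ratios used exact permutation tests over libraries. 3′ UTRs, coordinates and overlaps came from GENCODE release 21 for mouse (GRCm38), and the microRNA from RefSeq (1 of 1 matched). Shared sequence was found with BLAST 2.17.0 (95% identity over at least 50 bases). The rest used pandas 2.3.3, numpy 2.4.6 and, for plots, matplotlib 3.10.9 under Python 3.11.15. Other pseudocounts (1, 0.01), filters (none, 5 FPKM), quantile or median scaling, no trend, an unmoderated model on FPKM, a replicate block, a 1.5-fold minimum and the omission of each library were tried.

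The members and lists were chosen with earlier results of these data known. All 10 members, the genes of the other lists that passed, and Zeb1, Zeb2 and Mir200c were to be named; Cbx6, Cbx8, Pcgf6, Cdkn2a, Gm5946, Rbbp4, Rbbp7 and the other genes named were added after their values were seen. Some listed genes are counted but not reported here by name.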

Additional observations from a re-analysis of the deposited data

How the results depend on the processing

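Of 160 values of member fold changes under alternatives, 155 kept their direction and their side of the threshold, 2 passed it (Bmi1 and Eed, each without 1 library) and 3 changed sign: Ring1 to 0.048 without plus Dox library 3, and Rnf2 to -0.0263 without minus Dox library 2 and -0.0204 without plus Dox library 1. Among the 160, the values under the 1.5-fold minimum repeat those of the main fit and so could not change. Over the 6 omissions of 1 library the values ran from -0.1946 to 0.048 for Ring1 and from -0.0263 to 0.0663 for Rnf2. Without each library in turn, 0 to 1 members passed as higher and 0 to 1 as lower. The log2 ratio of Suz12 to Ezh2 ranged from -0.1775 to 0.0564 with each library left out, and changed sign only without plus Dox library 1. With an 8mer in place of a 7mer, 1 member held a seed match. The cause of these changes was not tested.

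Of all genes, 909 were higher and 1026 lower. The unmoderated model on FPKM called 593 as higher, a minimum of 1.5-fold left 221 higher and 231 lower, and leaving out each library gave 471 to 671 higher and 577 to 699 lower with fewer samples. Among the other Polycomb genes, 2 were higher without the trend and 0 at 1.5-fold, and 0 were lower without the filter or at 1.5-fold, 2 at a minimum of 5 FPKM and 0 to 2 with each library left out. Among textbook Polycomb-repressed genes, 0 were higher and 1 lower without the filter, without the trend or in the unmoderated model, 0 and 0 at 1.5-fold, and 0 to 1 higher and 1 lower with each library left out.

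The groups share replicate numbers, but same-numbered libraries did not deviate together (correlations 0.0287, 0.0359 and -0.00759). With the number as a replicate block 633 genes were higher and 704 lower, 0 members passed, and 0 textbook Polycomb-repressed genes were higher and 1 lower. Bcor (adjusted p = 0.0738) and Lhx2 (0.0954) did not pass with the block, and Cbx8 did (0.0499). For the ratios the block gave exact sign-flip p from 0.25 to 0.75. The smallest p that this test can give with 3 pairs is 0.25, so no ratio could pass. The number of reads behind each value is unknown, and 3 libraries of 1 clone limit every interval given.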

Other observations

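Of 19 proliferation genes, all tested, 0 rose and 2 fell, beside 7.06% and 7.97% of all tested genes. Rrm2, a subunit of the enzyme that makes deoxyribonucleotides, was at 200, 194 and 203 FPKM in the minus Dox libraries and 126, 131 and 131 FPKM in the plus Dox libraries. It fell by 0.62 on the log2 scale (limma adjusted p = 0.000109). Mcm4, part of the replicative helicase, was at 107, 104 and 108 FPKM without and 96.5, 98.8 and 95.6 FPKM with Dox and fell by 0.13 (limma adjusted p = 0.0492), a call that did not hold without any single library (adjusted p 0.0677 to 0.144). The median log2 fold change of the 19 genes was 0.02.

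The minus Dox libraries held Bmi1, Suz12 and Eed in a narrow range. The SD of their log2 levels there was 0.0183, 0.015 and 0.0223, and only 3.6%, 2.31% and 5.41% of the 7878 genes with a mean of 5 to 65 FPKM had a smaller one. In the plus Dox libraries the SD was 0.179, 0.0368 and 0.293, below which 83.8%, 15.7% and 94.6% of those genes lay. The median SD of those genes was 0.0934 without and 0.0841 with Dox. Ezh1 and Ezh2 varied most without Dox (SD 0.294 and 0.212), with 93.2% and 85.5% of those genes below them, and the other members lay between. With Dox, Ring1 and Jarid2 were also widely spread (SD 0.278 and 0.248), with 94.0% and 92.1% of those genes below them. For the remaining members that share ran from 53.2% (Rnf2) to 85.1% (Ezh2). These SDs rest on 3 libraries each and were not tested.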
